A study of Mus musculus with 8 samples.

Results

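Endothelial identity genes are the genes by which blood and lymph vessel cells are told apart from other cells: their junction proteins, surface receptors, secreted partners and the transcription factors that keep the lineage. Their probe sets were found through the gene symbols of the array's annotation for 36 listed genes. All 36 were measured, among 27200 genes in all, and the brightest of a gene's probe sets over the 8 arrays stood for it. The data are expression arrays of whole lungs from BALB/c mice, all carrying an inducible interleukin-1b (IL-1b) transgene described as lung-specific. The 5 dox arrays are from mice given doxycycline, which induces the transgene, and the 3 water arrays are from transgenic mice given water. The labels give 7 days on doxycycline or water and an age near 12 weeks, while column headings of the deposited text table say 5 weeks. The sources used here do not name the transgene's promoter, and doxycycline without the transgene was not analysed here. The labels do not say that each array is a separate mouse, so the p-values cover only the variation among these samples, which may be technical.

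In the lung, a thin capillary endothelium lies within the walls of the air spaces, and arteries, veins and lymphatics are the other vessels. In mice the capillary bed holds a general capillary cell, marked among others by Gpihbp1, and a cell specialised for gas exchange, marked among others by Car4, Ednrb and Apln. VE-cadherin (Cdh5) and its partners hold these cells together, and ETS and SOX transcription factors drive their gene programme.

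The labelled tissue was checked first. The alveolar genes Sftpc and Ager had mean intensities of 25683 and 9612 in dox lungs, against 25849 and 10984 in water lungs. The defining endothelial genes Pecam1, Kdr, Plvap and Cldn5 had mean intensities of 3198, 2240, 4861 and 5954 in dox lungs, against 3383, 2752, 5613 and 7044 in water lungs, where the lower quartile of all probe sets was 14.12. None of the 36 genes had a group mean under that quartile. The dimmest, the lymphatic regulator Prox1, was closest to it, with 21.5 in dox lungs and 20.3 in water lungs. Medians of all probe sets ran from 40.8 to 41.4 in dox arrays and from 41.5 to 41.9 in water arrays. Log2 values correlated between arrays of 1 group with r of 0.994 to 0.997 and between groups with r of 0.990 to 0.994.

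Most endothelial identity genes had lower fitted values in dox lungs by small amounts, and few passed a test adjusted over all genes. Of the 36, 5 fell and 0 rose at an adjusted p of 0.05 in limma, against 1.52% of all 27200 genes that fell and 3.48% that rose. At an unadjusted p of 0.05 the counts were 22 lower, against 9.92% of all genes, and 0 higher, against 8.79%. The median log2 change, dox minus water, was -0.22 for the 36 genes (a fold of 0.861) and -0.03 for all genes. The fitted change was below 0 for 28 of the 36, against 57.5% of all genes. All 5 dox arrays lay below all 3 water arrays for 15 of the 36, against 6.96% of all genes, and above them for 0 of the 36, against 7.25%. In whole lung, fewer cells of a type and less RNA per cell cannot be told apart.

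**Figure D1:**
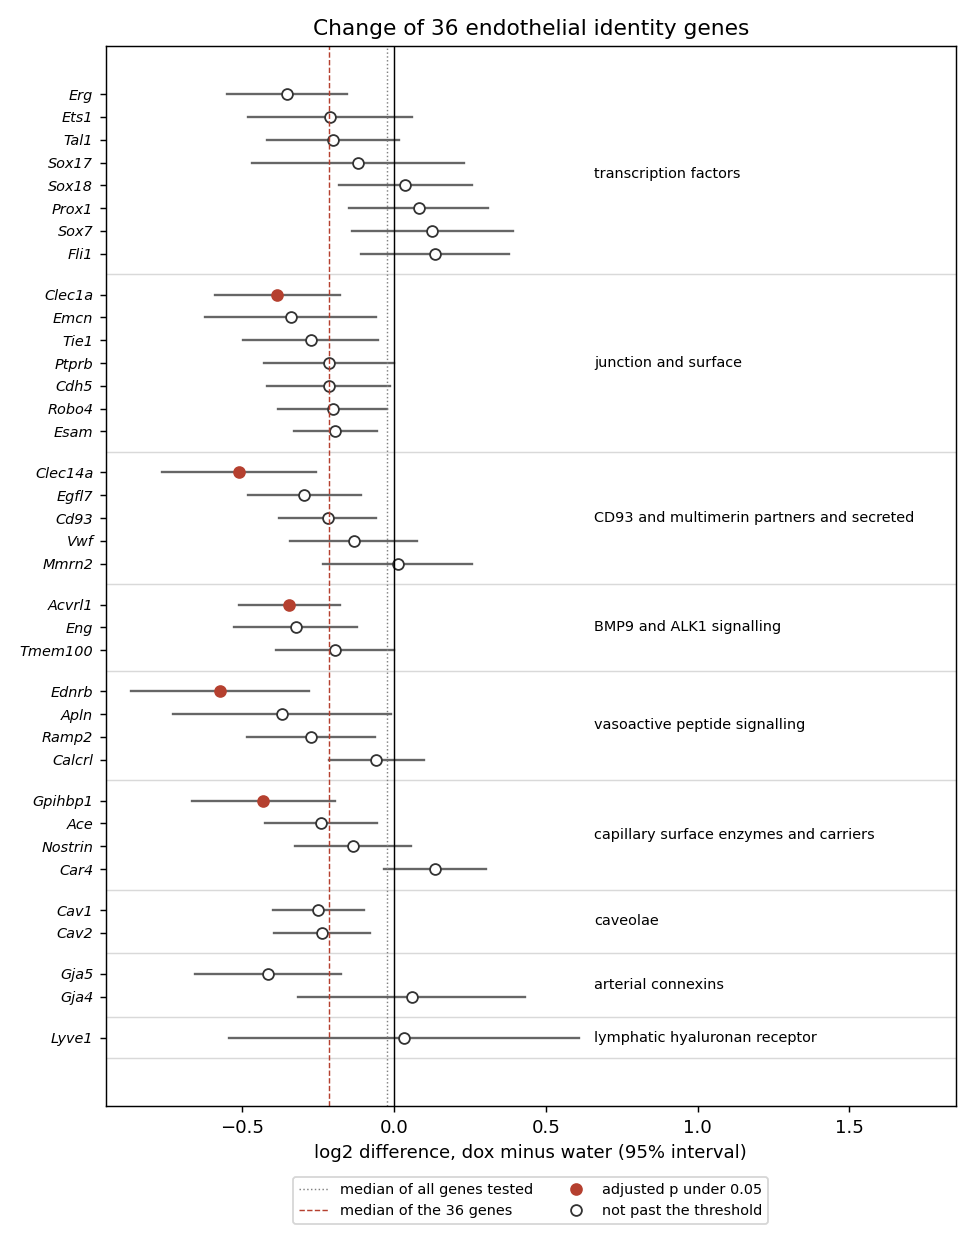
Log2 difference in intensity, dox minus water, of each of the 36 genes (points) with limma's 95% interval (bars; 5 dox and 3 water arrays), grouped by role. Filled points passed an adjusted p of 0.05; the dashed line is the median of the 36 genes at -0.22 and the dotted line that of all genes at -0.03. Car4, Sox7 and Fli1 lie to the right of 0, and the filled points for Ednrb and Clec14a lie farthest to the left.

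The array values below are intensities on a linear scale, given for dox replicates 1 to 5 and then for water replicates 1 to 3. Ednrb, the endothelin B receptor, had 1539, 1628, 1640, 1935 and 1247 in dox lungs, against 2667, 2416 and 2026 in water lungs. Every dox array was below the lowest water array, and dox 5 was the lowest of all. Ednrb fell by 0.57 on the log2 scale (SE 0.13, adjusted p = 0.0346), which is 32.8% lower. The call was lost without dox 1, 2 or 3 or water 1 or 2 (adjusted p up to 0.131), while the change stayed between -0.68 and -0.48. Flooring intensities at the lower quartile also ended the call (0.112), although every Ednrb value lay above that floor. The 3 dimmer probe sets of Ednrb had log2 changes of -0.45, -0.65 and -0.76. The last of these passed when each probe set was tested on its own (adjusted p = 0.0382).

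Clec14a, a C-type lectin of vessel sprouting that binds the matrix protein multimerin 2, had 1521, 1088, 1276, 1455 and 1126 in dox lungs, against 1953, 1779 and 1755 in water lungs. The groups did not overlap, and the dox arrays spread more (SD 0.22 on the log2 scale) than the water arrays (SD 0.08). Clec14a fell by 0.51 (SE 0.11, adjusted p = 0.0297), or 29.8%. The call was lost without dox 2, 3 or 5 or any 1 water array (adjusted p up to 0.111), with its probe sets averaged (0.053) and with the floor (0.0952). Its dimmer probe set had a change of -0.45 and did not pass alone (adjusted p = 0.111).

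The bases before the starts of these most changed genes are shown because the ETS factors Erg, Fli1 and Ets1 are themselves among the 36. The sequences are 250 bases upstream of the gene start, 5′ to 3′ on the gene's strand, from RefSeq on build GRCm38.p6, and capitals mark the ETS cores CAGGAA or CCGGAA on either strand. Ednrb (chr14:103843702-103843951, minus strand) and Clec14a (chr12:58269259-58269508, minus strand) fell, and Car4 (chr11:84957504-84957753, plus strand) is shown beside them as a capillary gene with a change above 0.
Ednrb: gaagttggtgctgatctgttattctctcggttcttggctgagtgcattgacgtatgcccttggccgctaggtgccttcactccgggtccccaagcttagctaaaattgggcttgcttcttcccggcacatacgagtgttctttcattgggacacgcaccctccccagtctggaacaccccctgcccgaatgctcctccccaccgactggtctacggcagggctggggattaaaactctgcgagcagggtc
Clec14a: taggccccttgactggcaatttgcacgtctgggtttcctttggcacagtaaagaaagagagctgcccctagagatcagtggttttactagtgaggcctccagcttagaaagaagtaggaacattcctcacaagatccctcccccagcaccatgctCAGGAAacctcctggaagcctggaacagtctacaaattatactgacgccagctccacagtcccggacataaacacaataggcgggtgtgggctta
Car4: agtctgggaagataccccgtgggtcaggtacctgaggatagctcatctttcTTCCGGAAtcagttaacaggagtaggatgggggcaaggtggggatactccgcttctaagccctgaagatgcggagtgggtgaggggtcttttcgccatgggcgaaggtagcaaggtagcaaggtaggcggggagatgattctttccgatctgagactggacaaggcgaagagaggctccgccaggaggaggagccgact
The Ednrb stretch holds neither core, the Clec14a stretch holds 1 CAGGAA, and in Car4 the 2 matches to CCGGAA overlap because the site reads the same way on both strands. Sequences were found for 19 of the 36 genes, with 27 starts. CAGGAA was in 11 of the 27 starts (40.7%), against 25.7% of 32851 starts of all genes, and CCGGAA was in 1 of 27 (3.7%), against 12.0%. The SOX core AACAAT was in 3 of 27 (11.1%, against 9.4%), the GATA core AGATAA in 2 of 27 (against 3281 of the 32851), and the FOX core GTAAACA in 0 (against 3.2%). These shares count letters on both strands in this window and are a description with no test.

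Gpihbp1, which anchors lipoprotein lipase on the capillary surface, had 3427, 2619, 2748, 3148 and 2978 in dox lungs, against 3668, 3770 and 4649 in water lungs. Dox 1 came closest to the water arrays without reaching them, and water 3 was the highest. Gpihbp1 fell by 0.43 (SE 0.11, adjusted p = 0.0452), or 25.9%, and the call was lost without any array but dox 1 (adjusted p up to 0.147). It was also lost with array weights (0.0568), array medians subtracted (0.0551), every probe set tested alone (0.0592) and the floor (0.113). Clec1a, another C-type lectin of endothelial and dendritic cells, had 1287, 1178, 1385, 1368 and 1476 in dox lungs, against 1945, 1561 and 1743 in water lungs. It fell by 0.38 (SE 0.09, adjusted p = 0.0409), or 23.4%. The call was lost without dox 1, 2, 3 or 4 or water 1 or 3 (adjusted p up to 0.144), and under the same 4 settings as for Gpihbp1 (0.0519 to 0.0921). Its further probe set had a similar fitted change of -0.40 and also did not overlap 0 in its 95% interval (-0.62 to -0.17).

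Acvrl1 encodes ALK1, the endothelial receptor for BMP9 and BMP10, endoglin (Eng) is its co-receptor, and Tmem100 is a target of the pathway. Acvrl1 had 2078, 1813, 1907, 2107 and 1790 in dox lungs, against 2354, 2483 and 2538 in water lungs. It fell by 0.34 (SE 0.08, adjusted p = 0.0261), or 21.3%, the smallest adjusted p among the 36. That call was lost without dox 2, 3 or 5 or water 2 or 3 (adjusted p up to 0.0904) and with its probe sets averaged (0.0561), the dimmer one having a change of -0.12. Eng had 3053, 2566, 3138, 3185 and 3468 in dox lungs, against 3904, 3924 and 3701 in water lungs. Without overlap between groups, its change of -0.32 (SE 0.09, adjusted p = 0.0735) did not pass. Tmem100 had 3892, 3590, 3858, 4550 and 3844 in dox lungs, against 4257, 4960 and 4324 in water lungs. Dox 4 reached into the water range, and the change of -0.19 did not pass (adjusted p = 0.265). Of the 3 genes of this pathway 1 fell, against 1.52% of all genes, and the median change was -0.32.

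**Figure D2:**
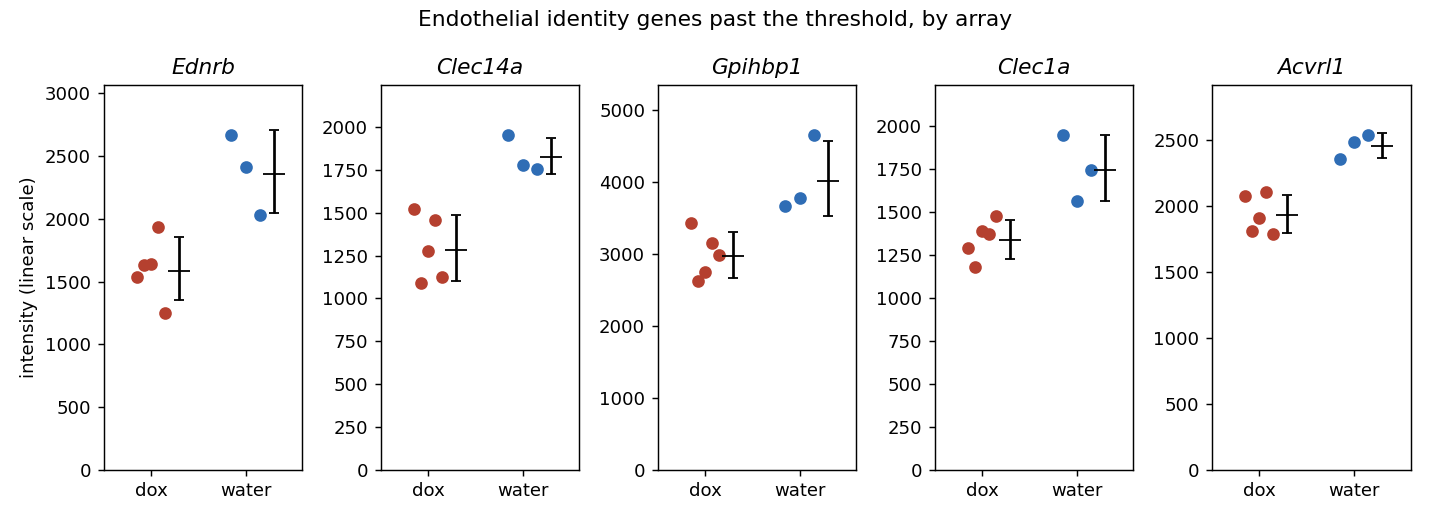
Intensity on a linear scale in each array for the 5 genes past the threshold, with dox arrays left of water arrays; each bar beside the points is the geometric mean with 1 SD on the log2 scale (5 dox and 3 water arrays). In each panel the highest dox array lies below the lowest water array, as a ratio by the least for Ednrb, Clec1a and Gpihbp1.

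**Figure D3:**
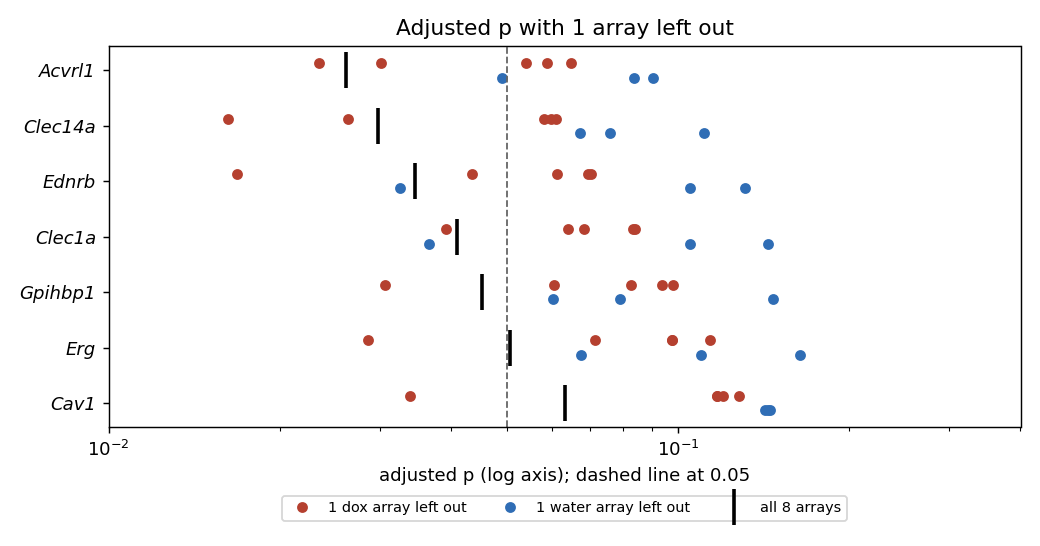
Adjusted p of limma on a log axis for the 5 genes past the threshold and the 2 other genes of the 36 that passed in at least 1 fit with an array left out; black bars mark all 8 arrays. Most points lie to the right of the dashed line at 0.05, and those of Erg and Cav1 pass it for 1 left-out array, dox 4.

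Among the other genes of vasoactive peptide signalling, Ramp2 and Calcrl form the adrenomedullin receptor and Apln is the ligand of the apelin receptor. Ramp2 had 5548, 4078, 4767, 5044 and 5109 in dox lungs, against 5726, 5723 and 6282 in water lungs. The groups did not overlap, but the change of -0.27 (SE 0.10, adjusted p = 0.147) did not pass. Calcrl had 6235, 6567, 6675, 7265 and 6435 in dox lungs, against 7021, 7223 and 6489 in water lungs. These ranges overlapped, with a change of -0.06 and a 95% interval of -0.22 to 0.10. Apln had 726, 1075, 1231, 1061 and 1037 in dox lungs, against 1497, 1397 and 1065 in water lungs. Dox 1 was far below the rest and water 3 fell inside the dox range, and the change of -0.37 (SE 0.16) did not pass (adjusted p = 0.253). Of the 4 genes of this role 1 fell, against 1.52% of all genes, and the median was -0.32.

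The other capillary surface genes were uneven. Angiotensin-converting enzyme (Ace) had 2156, 1857, 1973, 2384 and 2170 in dox lungs, against 2519, 2417 and 2515 in water lungs. Dox 4 came within a small margin of the lowest water array, and the change of -0.24 (SE 0.08, adjusted p = 0.143) did not pass. Carbonic anhydrase 4 (Car4) had 3432, 2970, 3204, 3350 and 3568 in dox lungs, against 3006, 2839 and 3188 in water lungs. Its change was 0.13 (95% interval -0.03 to 0.30, adjusted p = 0.39), so Car4 had a fitted change above 0 where Ednrb and Apln, which mark the same cell in mice, had changes below 0. The difference between these changes was not tested. Nostrin, which binds endothelial nitric oxide synthase and guides its traffic, had a change of -0.14 (adjusted p = 0.454).

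Junction and surface genes had small fitted changes below 0. In all 7 the 95% interval lay below 0, with an unadjusted p under 0.05, against 9.92% of all genes. Of the 7, 1 fell, Clec1a, against 1.52% of all genes, and the median change was -0.22. Cdh5, the adherens junction cadherin, had 3158, 3451, 3780, 3868 and 3932 in dox lungs, against 4412, 4467 and 3787 in water lungs. Water 3 lay inside the dox range, and the change of -0.22 (SE 0.09, adjusted p = 0.234) did not pass. Esam, a tight junction adhesion molecule, had 2566, 2496, 2646, 2777 and 2691 in dox lungs, against 3063, 2947 and 3026 in water lungs. Esam showed no overlap and a small spread in both groups, and its change of -0.19 (SE 0.06, adjusted p = 0.109) did not pass. Ptprb, the phosphatase VE-PTP that restrains the TIE2 receptor, had 5927, 4688, 5217, 6379 and 5277 in dox lungs, against 6467, 6523 and 6069 in water lungs. Its 3 probe sets differed: the brightest had a change of -0.22, the next -0.38 and the dimmest 0.05. Changes that did not pass were -0.34 for the sialomucin Emcn (adjusted p = 0.174), -0.28 for the orphan receptor Tie1 (adjusted p = 0.167) and -0.20 for the guidance receptor Robo4 (adjusted p = 0.21).

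Cd93, which like Clec14a binds multimerin 2 (Mmrn2), had 4062, 3739, 4355, 4305 and 4299 in dox lungs, against 4984, 4941 and 4563 in water lungs. Cd93 did not overlap between groups and did not pass (change -0.22, SE 0.07, adjusted p = 0.122). Egfl7, a secreted protein of the vessel matrix, had 837, 904, 1000, 967 and 794 in dox lungs, against 1106, 1128 and 1072 in water lungs. Its change of -0.30 (SE 0.08, adjusted p = 0.0748) also did not pass, again without overlap. Mmrn2, the shared ligand of Clec14a and Cd93, had a change of 0.01 (95% interval -0.23 to 0.26), and its direction turned without dox 3, 4 or 5 or water 3 (-0.12 to 0.08 over the arrays left out). Von Willebrand factor (Vwf), which platelets also hold, had a change of -0.13 (adjusted p = 0.507).

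The caveolar coat genes lay close together. Cav1, the main coat protein of caveolae, had 9147, 9400, 8820, 10275 and 8882 in dox lungs, against 11019, 11038 and 11080 in water lungs. Water arrays of Cav1 had an SD of 0.004 on the log2 scale, against 0.089 in dox arrays, and the change of -0.25 (SE 0.07, adjusted p = 0.0634) did not pass. Cav1 passed without dox 4 (adjusted p = 0.0338), with a trended and robust prior (0.00806), with quantile normalization repeated (0.0434) and with the dimmest 25% of genes left out (0.0444). Cav2, its partner, had 7992, 7738, 7611, 8385 and 6901 in dox lungs, against 9135, 8990 and 9143 in water lungs. Its change was -0.24 (SE 0.07, adjusted p = 0.095), also with no overlap. Alveolar type 1 cells also express both. Of 13 markers of those cells 1 fell, against 1.52% of all genes, and the median was -0.16. It was the growth factor binding protein Igfbp2 (-0.49, adjusted p = 0.033, lost without dox 1 or any water array, up to 0.123). Summed intensity of the 13 markers ran from 53191 to 58569 in dox arrays and from 61062 to 64913 in water arrays. No marker was at 0, and the part of these cells in the caveolin values was not tested.

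Neither arterial connexin passed, and their fitted changes had opposite signs. Gja5 (connexin 40) had 530, 727, 670, 651 and 648 in dox lungs, against 844, 970 and 763 in water lungs. It did not overlap, and the change of -0.41 (SE 0.11, adjusted p = 0.0564) missed the threshold, which it passed with the trended prior, the repeated normalization and the filter on dim genes. Gja4 (connexin 37) had 1637, 1899, 2245, 2058 and 1518 in dox lungs, against 1920, 2214 and 1327 in water lungs. Its change was 0.06 (95% interval -0.32 to 0.43), and it turned below 0 without dox 3 or water 3. The difference between the connexins was not tested.

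Among the transcription factors 0 of 8 passed, against 5.0% of all genes, and the median change was -0.04. At an unadjusted p under 0.05, 1 of the 8 was lower, against 9.92% of all genes, and 0 higher, against 8.79%. Erg, the ETS factor that maintains endothelial fate, had 505, 446, 473, 545 and 435 in dox lungs, against 570, 599 and 671 in water lungs. These did not overlap, and the change of -0.35 (SE 0.09) had an adjusted p of 0.0508. Erg passed without dox 4 (adjusted p = 0.0285), with a trended and robust prior (0.0176), with quantile normalization repeated (0.0409) and with the dimmest 25% of genes left out (0.0406). The further probe set of Erg had a change of -0.71 (adjusted p = 0.0821 when tested on its own). Ets1, which lymphocytes also express, had 2810, 3208, 3503, 3430 and 2859 in dox lungs, against 4204, 3912 and 2949 in water lungs. Ets1 overlapped through water 3 (change -0.21, adjusted p = 0.395), and its 3 dimmer probe sets had changes from -0.14 to -0.03. Fli1, an ETS factor shared with blood cells, had a change of 0.14 (95% interval -0.11 to 0.38), the highest of the 36.

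The SoxF factors Sox7, Sox17 and Sox18, which act together in vessel development, had changes of 0.13, -0.12 and 0.04, none of which passed. Their 95% intervals ran from -0.14 to 0.39, from -0.47 to 0.23 and from -0.18 to 0.26. Water arrays of Sox17 ran from 254 to 432 and covered the dox range of 278 to 360. The sign of each turned in some fit: Sox7 was below 0 without water 3, Sox18 without water 1 or 3, and Sox17 was above 0 without water 2. Tal1, a factor of blood and endothelial progenitors, had a change of -0.20 (adjusted p = 0.309), and Prox1, the lymphatic master regulator, 0.08 (adjusted p = 0.741). Lyve1, the hyaluronan receptor of lymphatic vessels and of some macrophages, had 1315, 756, 727, 1001 and 1486 in dox lungs, against 775, 888 and 1419 in water lungs. Dox 1, dox 5 and water 3 were high and the groups overlapped throughout (change 0.03, 95% interval -0.55 to 0.61).

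The 36 genes were also compared array by array. Their median deviation from the water mean was -0.24, -0.28, -0.17, -0.11 and -0.23 on the log2 scale in dox arrays 1 to 5, against 0.02, 0.04 and -0.06 in water arrays 1 to 3. Dox 4 was the mildest of the dox arrays, and it held the lowest value of the 8 arrays for 0 of the 36 genes, against 11 for dox 2. Water 2 held the highest value for 14 genes, and the other water arrays for 9 and 6. Summed intensity of the 36 ran from 80031 to 91879 in dox arrays and from 95301 to 100605 in water arrays, without overlap. Over the 8 arrays, Cdh5 was followed most closely by Apln (Pearson's r 0.90), Tie1 (0.88), Cd93 (0.86), Robo4 (0.85) and Gja5 (0.83), and ran against Car4 (-0.47). After each group's mean was taken out these correlations were 0.83, 0.77, 0.74, 0.72 and 0.66, and -0.10 for Car4. On that measure Mmrn2 followed Cdh5 most closely (0.96, against 0.69 with the group means left in), and Gpihbp1 ran against it most (-0.57). All of them rest on the same 8 arrays and are a description.

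Of the 12 genes of the 36 with several probe sets, 17 further probe sets were measured, and 16 of them had a fitted change of the same sign as the brightest. The exception was the dimmest one of Ptprb. Of the 17, 1 had a mean under the lower quartile of all probe sets, that of Calcrl at 6.91.

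Other endothelial genes, from a separate list, had a median change close to that of the 36. Of 50 measured, 5 fell, against 1.52% of all genes, and 1 rose, against 3.48%. Together 6 were called, against 5.0% of all genes, and the median change was -0.19. The falls were Klf2, a factor induced by blood flow (-0.52, adjusted p = 0.00677), Cdh13, or T-cadherin (-0.48, adjusted p = 0.00501), Tbx2 (-0.44), the venous factor Nr2f2 (-0.35) and Tspan7 (-0.30), the last 3 named after their values were seen. Klf2 and Cdh13 passed in each fit with 1 array left out (adjusted p up to 0.0334 and 0.0245). Tbx2 kept its call without dox 4 only (otherwise up to 0.145), and Nr2f2 likewise (up to 0.153), while Tspan7 kept it without dox 1 only (up to 0.119). All 3 also lost it with array weights, array medians subtracted, every probe set tested alone and the floor. Ackr1, the chemokine-binding receptor of venules, rose: it had 98.2, 108, 101, 105 and 160 in dox lungs, against 67.1, 58.3 and 60.4 in water lungs (change 0.86, SE 0.14, adjusted p = 0.00635). Pecam1 (-0.08), Kdr (-0.30), Plvap (-0.21) and Cldn5 (-0.24) did not pass, with adjusted p of 0.61, 0.0853, 0.165 and 0.107.

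Markers of other cells also differed between the groups. Of 16 leukocyte and myeloid markers 12 rose, against 3.48% of all genes, and 0 fell, against 1.52%, with a median change of 0.79. Their summed intensity ran from 44583 to 52553 in dox arrays and from 33030 to 39620 in water arrays. Among them Cd14, the endotoxin co-receptor (2.40), the neutrophil alarmin S100a9 (1.38, lost if water 2 or water 3 was left out, with adjusted p reaching 0.0617, and with the trended prior or the floor) and the macrophage receptor Adgre1 (1.33) changed most. Of 16 pericyte and smooth muscle markers 1 fell, against 1.52% of all genes, and 0 rose, against 3.48%, with a median of -0.28. The 1 that fell was Ndufa4l2 (-0.33, lost without any 1 water array, adjusted p up to 0.0749). At an unadjusted p under 0.05, 9 of the 16 were lower, against 9.92% of all genes, and 2 higher, against 8.79%. The 2 higher, named after their values were seen, were Kcnj8 (0.44, adjusted p = 0.0897) and Abcc9 (0.30, adjusted p = 0.107). Summed, the 16 markers ran from 10516 to 13254 in dox arrays and from 12942 to 15278 in water arrays. Of 14 fibroblast markers 2 fell, Tcf21 and Inmt, against 1.52% of all genes, and 0 rose, against 3.48%, with a median of -0.13. At an unadjusted p under 0.05, 4 of the 14 were lower, against 9.92% of all genes, and 3 higher, against 8.79%. The 3 higher, named after their values were seen, were the collagens Col1a2 (0.44), Col1a1 (0.41) and Col3a1 (0.28). Their adjusted p were 0.108, 0.237 and 0.21. Tcf21 lost its call in all fits with 1 array left out except those without dox 4 or water 1 (adjusted p up to 0.165). Inmt lost its call without dox 2 or any 1 water array (up to 0.0855). Of 10 alveolar type 2 markers 3 rose, against 3.48% of all genes, with a median of 0.03. They were Lamp3 (0.40), Sftpd (0.44) and Sftpa1, which kept its call without water 3 only (otherwise up to 0.137). T and B lymphocyte, platelet, erythroid and mast cell lists had 0 calls among 12, 10, 8 and 7 markers in limma, against 5.0% of all genes. Of these markers 2, 0, 1 and 1 had an unadjusted p under 0.05, against 9.92% of all genes lower and 8.79% higher. The smallest p in each belonged to Cd2 (change 0.32, adjusted p = 0.233), Clec1b (-0.42, 0.429), Epor (-0.27, 0.0999) and Mcpt4 (-0.30, 0.0508). Lymphocyte markers summed to 2054 to 2896 in dox arrays, against 2300 to 3986 in water arrays, and platelet markers to 1286 to 2789, against 1802 to 2882. No marker in these lists was at 0, and the part of these cells in the endothelial values was not tested.

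**Figure D4:**
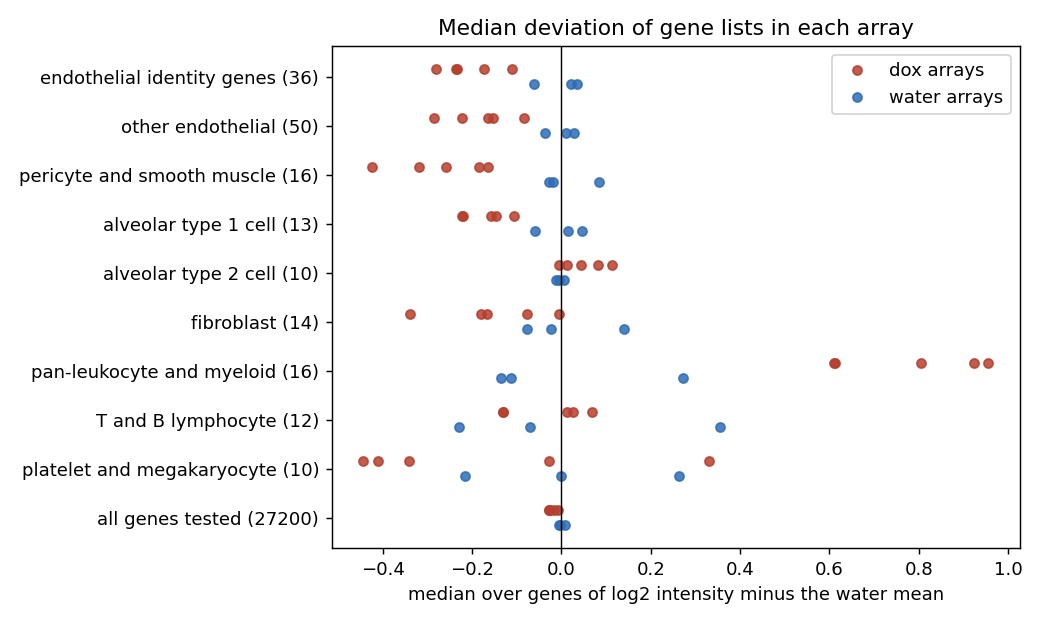
For each array (dox points above water points in each row), the median over a list's genes of log2 intensity minus the gene's water mean, with the number of genes in brackets. In the endothelial rows the dox arrays lie between -0.29 and -0.08 and below all water arrays, in the leukocyte row they lie between 0.61 and 0.96, and over all genes between -0.03 and -0.01.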

How the data were processed

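The authors deposited 1 linear intensity for each probe set in each array. RMA is the tool named, per the submitters' processing notes (version not given in the sources used here), and amplified biotin-labelled cRNA was hybridised, per the labels' protocols. RMA normally equalises the arrays' distributions, so a change in total RNA cannot be seen, and no detection calls were used. The number of arrays limits the precision. Probe sets (43681) were named from the deposited text table, whose 8 further value columns match no sample label and were not used, with symbols updated through RefSeq names of GRCm38.p6: 17218 by accession, 13435 by current and 1890 by older symbol, 4450 kept, 6687 unnamed and 1 with several names.

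Log2 values of 27200 genes (brightest probe set by mean log2) were tested with limma 3.58.1 in R 4.3.3 (lmFit, eBayes, 2-sided, Benjamini-Hochberg over all genes, threshold 0.05) on 5 dox and 3 water arrays; the computation was tested on simulated data. Levels are geometric means. "Fell" and "rose" mean past the threshold. The 36 genes and all lists were chosen with earlier results of these data known, so no test was adjusted over a list. Named genes were those past the threshold, those whose groups did not overlap, the largest change and brightest gene of each role, and up to 3 of the largest changes past the threshold of other lists (the smallest p where none passed), with exceptions marked; every remaining gene of the 36 has its change. Alternatives were another prior, array weights, 2 normalizations, a filter on dim genes, a floor, 4 choices of probe set or name, each array left out and the replicate number as a block.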

Additional observations from a re-analysis of the deposited data

How the results depend on the processing

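The count of endothelial identity genes that fell depended on the settings, while the direction of their median change did not. That median stayed between -0.26 and -0.19, and 28 to 32 of the 36 changes were below 0, against 57.5% of all genes in the main fit. In every setting run 0 of the 36 rose, where 3.48% of all genes rose in the main fit. Over all genes, 505 to 1152 rose across the settings. The share of all genes that fell, given in brackets, moved with the settings too. Against 5 that fell (1.52%), there were 13 with a trended and robust prior (2.44%). There were 8 with quantile normalization repeated (1.75%) and 8 with the dimmest 25% of genes left out (2.69%). Array weights (1.1%), array medians subtracted (1.09%) and probe sets of a gene averaged (1.3%) each gave 3. Testing every probe set on its own gave 3 (1.01%), and a floor at the lower quartile gave 2 (1.22%). The prior added Erg, Esam, Cd93, Egfl7, Eng, Cav1, Cav2 and Gja5, and the floor left Acvrl1 and added Esam. That floor lay below every intensity of the 36 genes, so their fitted changes stayed as they were. With 1 array left out the count ran from 0 (without dox 2, 0.824%, or dox 3, 1.03%) to 5 (without dox 4, 1.51%). It was 3 without dox 1 (0.974%), 2 without dox 5 (0.956%) and 1 without any 1 water array (0.776% to 1.02%). Of 50 other endothelial genes 6 were called in either direction, where 413 of 27200 genes fell and 946 rose (5.0%). In brackets are all genes that fell and rose. There were 12 (664, 1152) with the trended and robust prior, 3 (300, 852) with array weights and 3 (297, 1064) with array medians subtracted. Every probe set on its own gave 3 (275, 823), and 1 array left out gave 3 to 6 (211 to 410, 661 to 880).

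With the replicate number as a block, which uses up residual degrees of freedom, 0 of the 36 genes fell, against 0.371% of all genes. Over all genes 101 fell and 505 rose, against 413 and 946 without the block, and 2 other endothelial genes were called. Same-numbered arrays did not deviate together (r = 0.007, 0.062 and -0.161), so the numbers were not taken as pairs, and water 1, 2 and 3 correlated best with dox 2, 3 and 5.

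Changes of sign were seen only among genes that did not pass. With 1 array left out the changes ran from -0.039 to 0.26 for Sox7, -0.34 to 0.047 for Sox17, -0.026 to 0.16 for Sox18, -0.033 to 0.17 for Prox1, -0.12 to 0.084 for Mmrn2, -0.15 to 0.21 for Gja4 and -0.15 to 0.29 for Lyve1. With the block the change was -0.0072 for Sox18, -0.051 for Mmrn2 and -0.15 for Lyve1, and with array weights it was -0.016 for Lyve1. Among other named genes the floor also ended the calls of Igfbp2, Tcf21 and Sftpa1. The calls of Tcf21 and Sftpa1 were lost too with every probe set on its own, and that of Tcf21 with array medians subtracted or probe sets averaged. The cause of these differences was not tested. A tally over all settings covered each endothelial identity gene and the calls in each list except the identity and other endothelial genes. In it, 981 values were counted as unchanged. For a single gene this means that it kept its side of the threshold and its direction. For a list it means only that the count of calls stayed within a set ratio of the main count. Values of single genes lost a call in 46 cases, gained one in 17 and changed sign in 19. The other 39 were list counts that moved beyond that ratio. The tally leaves out the counts of identity genes that fell or rose, their median change and the other endothelial genes called. No detection calls were used, so the reliability of dim probe sets such as that of Prox1 is limited.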

Other observations

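Of 17 measured genes of the activated endothelium, 6 rose, against 3.48% of all genes, and 1 fell, against 1.52%, and the median change was 0.20. The 6 include Ackr1, already counted above among the other endothelial genes. Cxcl1, a neutrophil-attracting chemokine that many cell types make, had 1893, 1605, 998, 1152 and 1874 in dox lungs, against 52.0, 61.5 and 69.4 in water lungs. Its groups were far apart: it rose by 4.59 on the log2 scale (SE 0.21, adjusted p = 1.06e-06), a fold of 24.0, and passed with any 1 array left out. P-selectin (Selp), which tethers leukocytes to the vessel wall, had 74.5, 88.9, 67.9, 71.3 and 112 in dox lungs, against 38.6, 36.4 and 41.4 in water lungs. Selp did not overlap between groups, and it rose by 1.07 on the log2 scale (SE 0.15, adjusted p = 0.00191). E-selectin (Sele) averaged 34.3 in dox lungs and 14.4 in water lungs, close to the array-wide lower quartile. It rose by 1.26 (adjusted p = 0.00541), a call lost with a floor at that quartile.

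The 1 gene of that list that fell was Angpt2, a context-dependent antagonist of the TIE2 receptor, named after its values were seen. It had 106, 86.7, 105, 121 and 94.9 in dox lungs, against 186, 158 and 133 in water lungs. Without overlap, it fell by 0.62 (SE 0.13, adjusted p = 0.0173), and the call was lost without water 1 or 2 (up to 0.0695) or with the floor. The list's summed intensity ran from 17712 to 20020 in dox arrays and from 16147 to 17171 in water arrays. Of 8 proliferation genes 6 rose, against 3.48% of all genes, with a median change of 0.84, and the cells they came from were not determined.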
